A study of Homo sapiens with 18 samples.

Results

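Human SH-SY5Y cells that received TRV130 were compared here with the same cells that received water, over all genes. The comparison took the 3 libraries labelled TRV130 and the 3 labelled Control by the group named in their titles, which is 6 of the 18 libraries of the series. SH-SY5Y is an established line from a human neuroblastoma, a tumour of the sympathetic nerve lineage, and its labelled genotype is wild type. All cells had first spent 7 days in 10 µM all-trans retinoic acid with 2% serum, which turns the line towards a neuron-like state, so the water cells carry this treatment too. TRV130 was given at 200 nM and water served as the control, each for 15 min before RNA was taken.

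TRV130, also known as oliceridine, is an agonist of the mu opioid receptor that was selected to engage G proteins more than arrestins. The mu receptor couples to inhibitory G proteins, which lower cyclic AMP, open potassium channels of the Kir3 type and close voltage-gated calcium channels. Its signal also reaches MAP kinase, and early response genes such as FOS are transcribed within minutes of such signals, before new protein is made.

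Each library name ends in a code whose meaning the labels do not state. Code A (that of Control_0409) was carried by TRV130 1 and 2 and Control 1, code B (that of Control_1109) by TRV130 3 and Control 2, and code C by Control 3 and by no TRV130 library. The labels do not call the replicates of a group separate cultures, so a p-value measures only how far these libraries spread, and that spread may be technical. Total counts were 29366491, 33123855 and 27697195 in the TRV130 libraries and 25465814, 22455473 and 24126549 in the Control libraries. Of 58735 genes in the deposited table, 23231 were abundant enough to test.

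Control 1 stood apart before any comparison. It held 20888 reads in the 3647 protein-coding genes whose median count over the 18 libraries was 0, against 571 to 665 in the TRV130 libraries, 906 in Control 2 and 277 in Control 3. Control 2 stood apart in small structured RNAs, described with their values below. The cells matched their label: the noradrenergic transcription factor gene PHOX2A was between 1464 and 1960 CPM in the 6 libraries, DBH, the enzyme that makes noradrenaline, between 923 and 2052 CPM, and the neuronal tubulin gene TUBB3 between 486 and 968 CPM. CPM is a count divided by its library total, after trimmed-mean (TMM) scaling, and put on the usual common scale.

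No single gene separated TRV130 from water beyond the spread between libraries in the main fit. The edgeR quasi-likelihood test with Benjamini-Hochberg adjustment called 0 of 23231 genes (0.0%), with the smallest adjusted p at 1.00. At an unadjusted p under 0.05 there were 430 genes, of which 132 were higher (0.568% of those tested) and 298 lower (1.28%). With the library code as a block edgeR also called 0 genes (0.0%), with 1037 at an unadjusted p under 0.05 (362 higher, 1.56%, and 675 lower, 2.91%) and the smallest adjusted p at 0.288. DESeq2 called 1 gene without the code and 4 with it, and limma voom with the code called 1, with or without quality weights. The precision of these data was limited: for the 11945 genes of at least 10 CPM, the 95% interval of a log2 fold change reached 0.50 to each side at the median in the main fit and 0.32 with the code as a block.

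Within a code, TRV130 can be set directly against the water library of the same code. These differences are of log2 CPM with a prior count of 2, and they rest on Control 1 for both code A libraries and on Control 2 for code B. Over the 12008 protein-coding genes of at least 5 CPM, the SD of the differences was 0.38 for TRV130 1, 0.40 for TRV130 2 and 0.24 for TRV130 3. TRV130 1 and 2, which had the same compound and code, differed from each other with an SD of 0.22, close to the SD of TRV130 3 against its Control library. The mean difference in code A and the difference in code B had a Pearson r of 0.35 and a Spearman rho of 0.39 across genes, which are not independent replicates, and the same sign in 65.5% of them. The 2 codes share no library in this description. A difference of at least 0.5 in the same direction in both codes was found in 44 genes that were higher and 32 that were lower.

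**Figure D1:**
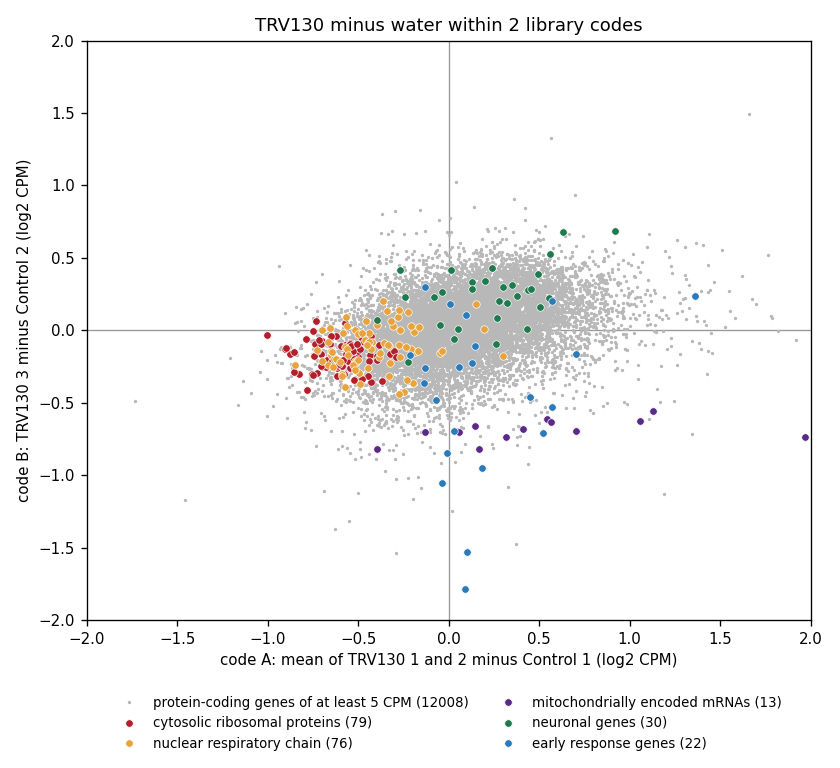
Each point is a protein-coding gene of at least 5 CPM, with the TRV130 minus water difference in log2 CPM in code A (mean of TRV130 1 and 2 minus Control 1) on the horizontal axis and in code B (TRV130 3 minus Control 2) on the vertical axis. Ribosomal protein genes (red) lie far below 0 in code A and slightly below 0 in code B, mitochondrially encoded mRNAs (purple) lie mostly above 0 in code A and below 0 in code B, and 14 genes lie outside the axes.

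The long noncoding RNA gene LINC02983 was the only gene that DESeq2 called without the code. It lies on the minus strand of chromosome 7 at 5426277 to 5428927 (GRCh38). It stood at 2.70, 2.62 and 3.28 CPM in TRV130 1, 2 and 3 and at 5.19, 6.99 and 5.58 CPM in Control 1, 2 and 3. All TRV130 libraries were lower than all Control libraries, and the ranges did not overlap, as was so for 1.75% of all tested genes. Its log2 fold change was -1.04 (SE 0.22, adjusted p = 1.00 by edgeR with Benjamini-Hochberg adjustment), and the within-code differences were -0.92, -0.96 and -1.08. DESeq2 gave it -1.07 without the code (adjusted p = 0.0316) and -0.98 with it (adjusted p = 0.0361).

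DESeq2 with the code called 3 further genes, all lower with TRV130 and all named after their values were seen. MYH16, a myosin heavy chain pseudogene in humans, stood at 0.901, 0.511 and 0.878 CPM with TRV130 and at 5.14, 3.72 and 0.432 CPM in Control. Control 1 and 2 were high and Control 3 was below every TRV130 library, so the groups overlapped. Its DESeq2 log2 fold change with the code was -2.38 (adjusted p = 6.52e-04), and limma voom with the code called it too (adjusted p = 0.0465 without quality weights and 0.00768 with them). RYR1, the calcium release channel of the endoplasmic and sarcoplasmic reticulum, stood at 2.00, 2.49 and 1.86 CPM with TRV130 and at 19.4, 3.50 and 2.21 CPM in Control. Control 1 was far above the other libraries: the edgeR log2 fold change was -1.98 and -0.44 without Control 1, and TRV130 3 was below Control 2 by a log2 difference of -0.89. FAM20A, a pseudokinase of the secretory pathway, had 3.25 and 1.20 CPM in Control 1 and 2 and at most 0.304 CPM in the other 4 libraries.

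The protein-coding genes with the smallest unadjusted p among those of at least 1 CPM are given next as values, since none passed. Ranking by p in these libraries favours groups without overlap, so a lack of overlap in either direction is no further support. CNTN1, a contactin that joins axons and glia, was at 8.42, 9.88 and 11.3 CPM with TRV130 and at 4.78, 6.99 and 6.83 CPM in Control. Every TRV130 library lay above every Control library, which was so for 1.71% of all tested genes in the higher direction and 1.75% in the lower. The log2 fold change was 0.67 (SE 0.21) and 0.63 with the code as a block, with within-code differences of 0.81, 1.03 and 0.69. UTRN, the dystrophin relative utrophin, was at 8.15, 8.82 and 8.17 CPM with TRV130 and at 6.09, 5.58 and 5.53 CPM in Control, again without overlap. SLC15A4, a lysosomal transporter of histidine and small peptides, was at 17.3, 14.7 and 14.1 CPM against 11.6, 11.4 and 10.0 CPM. These 2 genes had log2 fold changes of 0.55 (SE 0.20) and 0.48 (SE 0.16).

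Of the other 7 in the higher direction, 5 also had no overlap between the groups: RLF, a zinc finger protein gene (0.40), FAM161A, a gene of the ciliary base (0.45), NAALAD2, a peptidase of the N-acetylated acidic dipeptide family (0.53), PTGFR, the prostaglandin F receptor (1.07), and RGPD5 (1.68). RGPD5 stood at 2.39, 2.38 and 2.74 CPM with TRV130 and at 0.496, 0.930 and 0.908 CPM in Control. It belongs to a family of near-identical copies on chromosome 2, so its reads may have been split or dropped between copies and its value is uncertain. TBC1D3G, another gene of a multi-copy family, was at 7.01 CPM in TRV130 1 and at most 0.266 CPM in the other 5 libraries, so its log2 fold change of 3.96 rests on 1 library, and it was -1.45 without TRV130 1. The last, ENSG00000274276, stood at 10.8, 5.93 and 17.9 CPM against 5.37, 7.08 and 4.07 CPM, and the groups overlapped.

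In the lower direction KIZ, a centrosomal protein gene, gave the tightest groups. It stood at 10.3, 9.40 and 10.2 CPM with TRV130 and at 14.4, 14.3 and 14.7 CPM in Control, with a log2 fold change of -0.54 (SE 0.18) and within-code differences of -0.48, -0.61 and -0.49. TEX14 (-1.40), SULT1A1, a phenol sulfotransferase (-1.54), TJP3, a tight junction scaffold (-1.14), WTIP (-0.67) and ADGRD1, an adhesion receptor (-1.19), were likewise lower in every TRV130 library than in any Control library. In each of these 5 genes Control 1 was the highest of the 6 libraries. NIBAN3 (-2.30), MYO1F, an unconventional myosin (-1.73), and RYR1 overlapped between groups, with Control 1 again the highest. CACNA1A, the pore of P/Q-type calcium channels, had 12.5 CPM in Control 1 and at most 0.238 CPM in the other 5 libraries. Its log2 fold change was -5.40, and 1.88 without Control 1.

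**Figure D2:**
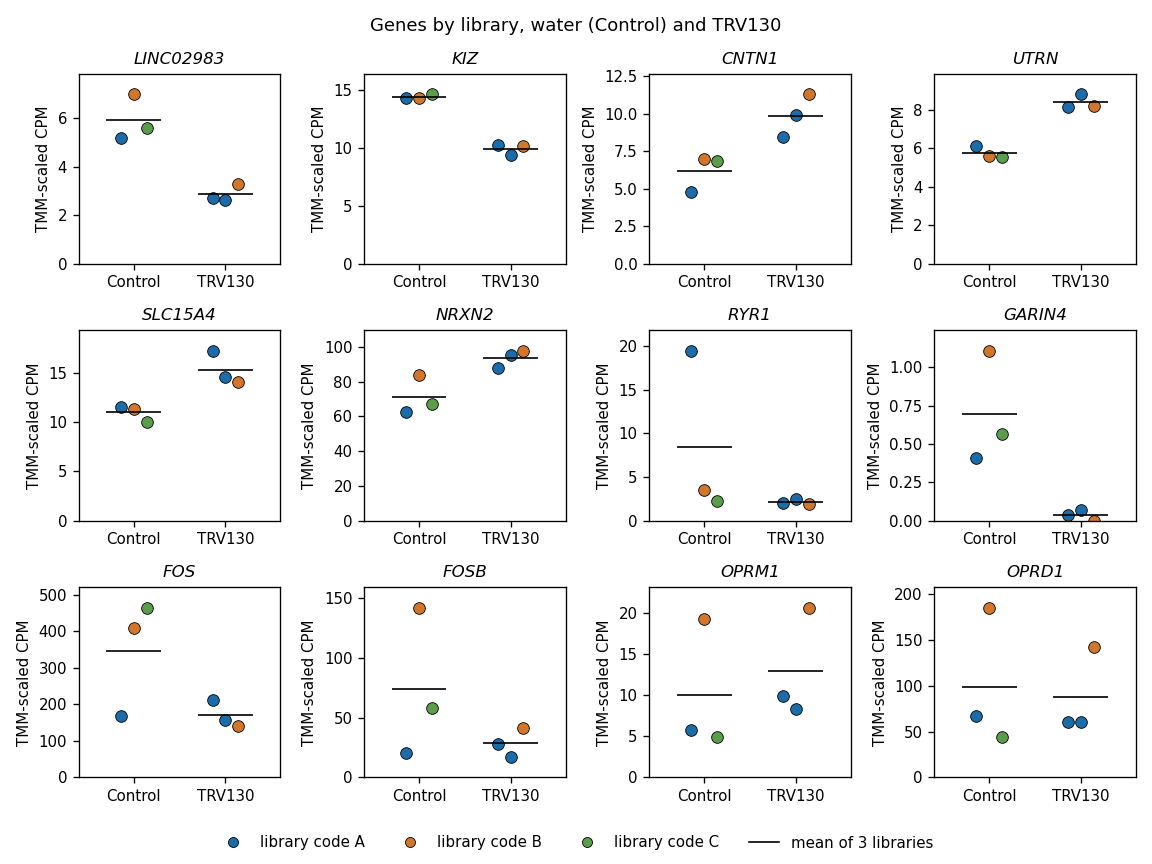
Panels give TMM-scaled CPM of 1 gene each in the 3 Control and 3 TRV130 libraries, coloured by library code, with a line at each group's mean. LINC02983, KIZ, CNTN1, UTRN, SLC15A4 and NRXN2 do not overlap between groups, RYR1 has 1 high Control library at 19.4 CPM, FOS and FOSB overlap through Control 1, and OPRM1 and OPRD1 are highest in the 2 libraries of code B.

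A second choice of genes ranked protein-coding genes of at least 5 CPM by the smallest of the 3 within-code differences, with Control 3 playing no part. Among the 12008 such genes, all 3 differences were positive in 34.2% and negative in 22.4%. The 10 highest were SERF1B, CNTN1, IKZF1, ZNF286B, AC240274.1, KIF14, SOGA3, SPTY2D1, IGFBPL1 and ZNF286A-TBC1D26. KIF14, a kinesin of cell division, was at 13.4, 15.5 and 15.5 CPM with TRV130 against 5.55 CPM in Control 1 and 10.1 CPM in Control 2, yet Control 3 was the highest library at 16.6 CPM. IKZF1, the Ikaros zinc finger factor, was at 5.44, 6.64 and 6.28 CPM against 2.75, 3.94 and 5.97 CPM. SPTY2D1, a histone chaperone gene, had within-code differences of 0.68, 0.73 and 0.58. SERF1B, ZNF286B, AC240274.1 and ZNF286A-TBC1D26 have near-identical copies or overlap other genes and are uncertain. SOGA3 and IGFBPL1 were lower in TRV130 1 and 2 than in Control 2, and higher than the Control library of the same code.

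The 10 lowest by this measure were NPIPA7, RYR1, ACAP1, LAT, MT1X, ZMYND10, FUOM, SEMA4A, S100A11 and RCN3. MT1X, a metallothionein that binds zinc and copper, was at 5.29, 3.61 and 2.53 CPM with TRV130 and at 8.85, 3.85 and 5.97 CPM in Control. ACAP1 was at 4.31, 4.36 and 5.67 CPM against 7.04, 12.4 and 3.72 CPM. LAT, a signalling adaptor known from T cells, ZMYND10, SEMA4A and RCN3 had their lowest value in Control 3, so within the codes TRV130 was lower and across groups the ranges overlapped. NPIPA7 belongs to a family of near-identical copies and is uncertain. Apart from CNTN1 and RYR1, none of these 20 genes was at an unadjusted p under 0.05 in the main fit.

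The receptors came first in the pathway, and OPRM1 and OPRD1 were highest in both libraries of code B. OPRM1, the mu receptor gene on which TRV130 acts, was at 9.83 and 8.31 CPM in TRV130 1 and 2 and at 20.6 CPM in TRV130 3. Its Control levels were 5.78, 19.3 and 4.93 CPM, so the 2 libraries of code B were the high ones in both groups. The log2 fold change was 0.37 (SE 0.57), the within-code differences were 0.76, 0.52 and 0.10, and without TRV130 3 the fold change was -0.13. OPRD1, the delta receptor gene, was at 60.3, 60.5 and 142.7 CPM against 67.1, 185.3 and 43.6 CPM, with a log2 fold change of -0.17 (SE 0.51) that was 0.67 without Control 2. OPRL1, the nociceptin receptor gene, was at 12.5, 14.8 and 19.2 CPM against 13.6, 15.9 and 17.6 CPM, a difference of -0.02 (SE 0.19) with a 95% interval from -0.43 to 0.39. The kappa receptor gene OPRK1 and the 4 opioid peptide precursor genes were too low to test. Per kilobase of exon, OPRD1 averaged 9.98 CPM over the 6 libraries, OPRL1 4.39 and OPRM1 1.41.

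Downstream of the receptor the G protein genes showed no call. Of 20 genes for Gi/o and beta-gamma subunits, 5 had a higher and 15 a lower log2 fold change (median -0.15), against 47.2% higher and 52.8% lower over all tested genes with a median of -0.02. With the code as a block the same list split evenly, with a median of 0.00. GNAO1, the neuronal Go alpha subunit, was at 54.0, 63.5 and 71.5 CPM with TRV130 and at 47.0, 56.1 and 46.2 CPM in Control, with within-code differences of 0.20, 0.43 and 0.35. GNG8, a gamma subunit, was at 358, 354 and 164 CPM against 602, 225 and 421 CPM, and each TRV130 library was below the Control library of its code. Among 7 arrestin and receptor kinase genes the median was -0.01. ARRB2, the arrestin that binds activated receptors, was at 51.0, 46.7 and 36.2 CPM against 50.05, 33.6 and 43.7 CPM, with a log2 fold change of 0.07 (SE 0.19). The 15 tested RGS genes, whose products switch G proteins off, had a median of -0.11 and 0.04 with the code as a block.

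Cyclic AMP and protein kinase A genes differed between the group comparison and the codes. Of 34 tested, 16 were higher and 18 lower in the main fit (median -0.01), while 19 were higher and 5 lower in all 3 within-code differences, against a background of 27.1% higher and 25.1% lower over all tested genes. PDE4B, a phosphodiesterase that breaks down cyclic AMP, was at 61.1, 61.1 and 68.5 CPM with TRV130 and at 44.0, 56.9 and 59.2 CPM in Control, so the groups did not overlap. It was the only 1 of the 34 with every TRV130 library above every Control library, which was so for 1.71% of all tested genes. With the code as a block but no Control 1, 12 of the 34 were higher and 22 lower. Among the voltage-gated calcium channel genes 12 of 13 were higher (median 0.22), 10 of 13 with the code as a block (median 0.11), and CACNA1A was the exception in the main fit. Without Control 3 it was 9 of 13 (median 0.0653), and the median within code B was 0.0091. CACNB3, a channel beta subunit, was at 130.0, 116.0 and 115.5 CPM with TRV130 and at 113.6, 113.3 and 103.1 CPM in Control. Of 24 potassium channel genes 15 were higher and 9 lower (median 0.10), and their median within-code differences were -0.22, -0.17 and 0.14. KCNQ5, of the M-current family, was at 3.29, 3.88 and 4.73 CPM against 2.08, 4.20 and 2.55 CPM.

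The early response genes were mostly lower against water in the group comparison, while their median differences within code A were 0.10 and -0.08 and that within code B was -0.26. The promoters of FOS and EGR1 are shown because both genes are known to respond to cyclic AMP and MAP kinase signals and stood among the more abundant of the list. The sequences are from RefSeq (GRCh38.p14, plus strand), end at or before the gene's start, and carry in capitals the letters TGACG on either strand, the shorter form of the cyclic AMP response element, and the CArG box, the core of the serum response element.
FOS, chr14:75278578-75278773: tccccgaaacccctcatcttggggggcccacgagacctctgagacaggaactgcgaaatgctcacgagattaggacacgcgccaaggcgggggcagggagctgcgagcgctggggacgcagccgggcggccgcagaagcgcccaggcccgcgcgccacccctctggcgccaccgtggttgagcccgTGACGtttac
EGR1, chr5:138465229-138465478: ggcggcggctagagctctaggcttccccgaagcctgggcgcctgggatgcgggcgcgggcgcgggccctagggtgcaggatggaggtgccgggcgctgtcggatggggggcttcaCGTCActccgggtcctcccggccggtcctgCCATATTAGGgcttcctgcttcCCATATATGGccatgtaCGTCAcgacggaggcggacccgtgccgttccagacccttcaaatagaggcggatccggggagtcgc
In the 250 bases before the RefSeq start, 17 of 28 early response promoters with a sequence held TGACG (60.7%), against 21.7% of 27305 promoters. The full element TGACGTCA, which contains the shorter form, was in 3 of 28 (JUND, MAFF and PPP1R15A) against 1.77% of all, and the CArG box was in 2 of 28 (EGR1 and SRF), against 1.14% of all. A match is a run of letters and no measure of binding. Bases further upstream were not searched, so the lack of a CArG box before FOS holds only for the bases searched.

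FOS was at 211, 157 and 141 CPM with TRV130 and at 169, 408 and 465 CPM in Control. The TRV130 libraries sat at the level of Control 1, and Control 2 and 3 were higher than all of them. The log2 fold change was -1.03 (SE 0.39, unadjusted p = 0.0173, adjusted p = 1.00 by edgeR), and the within-code differences were 0.32, -0.11 and -1.53. FOSB was at 27.9, 16.96 and 41.2 CPM against 20.4, 142.0 and 58.3 CPM, with Control 1 inside the TRV130 range, Control 2 and 3 above it and a log2 fold change of -1.36 (SE 0.57). EGR1 was at 408, 403 and 565 CPM against 282, 926 and 812 CPM, with within-code differences of 0.53, 0.51 and -0.71. NR4A1, an orphan nuclear receptor gene, was at 41.4, 36.4 and 37.4 CPM against 39.8, 77.8 and 24.3 CPM, so only Control 2 lay above the TRV130 libraries.

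Of 32 tested early response genes 22 were lower and 10 higher (median -0.17, and -0.11 with the code as a block). Within the codes, 8 were lower and 3 higher in all 3 differences, where 25.1% of all tested genes were lower and 27.1% higher. By this within-code measure the count of lower genes was near the share over all genes. At an unadjusted p under 0.05 in the main edgeR fit, 4 of the 32 were lower and 0 higher. Over all tested genes 1.28% were lower and 0.568% higher in this way. With the code as a block 4 were lower and 1 higher, against 2.91% and 1.56% of all tested genes. ATF3, a stress-responsive transcription factor gene, was at 20.6, 16.3 and 15.2 CPM against 17.96, 24.6 and 25.5 CPM. KLF2 was at 0.862, 0.477 and 0.540 CPM against 0.858, 1.81 and 1.43 CPM. JUNB and SGK1, chosen after their values were seen, were the 2 members with every TRV130 library below every Control library. This was so for 1.75% of all tested genes. JUNB stood at 385, 372 and 357 CPM with TRV130 and at 414, 428 and 559 CPM in Control. DUSP1, the phosphatase that switches MAP kinases off and an early response gene itself, was at 23.7, 24.6 and 29.6 CPM against 24.0, 44.7 and 81.4 CPM. It was the only 1 of 18 MAP kinase feedback genes at an unadjusted p under 0.05. The list had 5 higher and 13 lower (median -0.05), and 8 higher and 10 lower with the code as a block. In all 3 within-code differences 8 of the 18 were higher and 1 was lower, against 27.1% and 25.1% of all tested genes. Without Control 1, the code-block fit had 7 higher and 11 lower (median -0.11).

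The 4 genes of the study's title had few reads in TRV130 and most of their reads in Control 1, except GARIN4. GARIN4 had 1, 2 and 0 reads in the TRV130 libraries and 9, 25 and 13 in the Control libraries. All TRV130 libraries were lower, as was so for 1.75% of all tested genes. The ratio of TRV130 to Control was 0.0513, with a 95% interval of 0.0102 to 0.159 that covers counting error only, and 0.0427 without Control 1. An antisense gene, ENSG00000235862, overlaps GARIN4, and without strand their reads cannot be separated. TRIM56 had 2, 7 and 6 reads against 103, 16 and 0, and its ratio of 0.101 was 0.507 (0.234 to 1.10) without Control 1. RASAL1 had 3, 1 and 3 reads against 55, 12 and 1, with ratios of 0.0828 and, without Control 1, 0.291 (0.0985 to 0.786). CACNA1F had 0, 2 and 0 reads against 119, 4 and 0, with ratios of 0.0131 (0.00157 to 0.0482) and, without Control 1, 0.271 (0.0245 to 1.89). The edgeR test called none of GARIN4 (log2 fold change -4.11, SE 1.11), RASAL1 and TRIM56, and CACNA1F was too low to test. Against the other 4 compounds, a comparison described below, GARIN4, RASAL1 and TRIM56 differed by -0.30, -0.43 and 0.45 on the log2 scale, and none was called.

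Genes of lipid synthesis had mostly positive fold changes, none of them called, and for sterol genes this depended on Control 2. Of 25 tested sterol synthesis genes 21 had a higher log2 fold change (median 0.24) and 16 with the code as a block (median 0.07), and the median within-code differences were -0.10, 0.04 and 0.16. Without Control 2 the split was 13 higher and 12 lower (median 0.0571), and without Control 1 it was 23 and 2 (median 0.54). SQLE, squalene epoxidase, was at 80.1, 85.3 and 56.6 CPM with TRV130 and in Control at 60.8, 43.4 and 53.9 CPM, and INSIG1, the sterol-sensing brake on the pathway, at 96.7, 108.9 and 70.1 CPM against 77.3, 52.1 and 68.8 CPM. In both, TRV130 3 lay below or near Control 1, yet all 3 within-code differences were positive, from 0.38 to 0.49 for SQLE and from 0.32 to 0.49 for INSIG1.

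Of 17 fatty acid synthesis genes 13 were higher (median 0.29), and the same number with the code as a block (median 0.18), with median within-code differences of 0.19, 0.31 and 0.27. Without Control 1, the code-block fit again had 13 higher, with a median of 0.0753. In 5 of them, ACLY, FASN, SCD, ELOVL6 and FADS1, every TRV130 library was above every Control library, which was so for 1.71% of all tested genes. ACLY, FASN and SCD are named for this separation, after their values were seen. ELOVL6, which lengthens fatty acid chains, was at 49.1, 49.5 and 38.8 CPM with TRV130 and at 36.6, 30.4 and 38.0 CPM in Control, and FADS1, a desaturase, at 138.5, 162.1 and 166.5 CPM against 114.1, 138.2 and 108.2 CPM. Neither sterol nor fatty acid genes included 1 at an unadjusted p under 0.05 in the main fit, while with the code as a block 2 sterol genes and 1 fatty acid gene were, all higher (1.56% of all genes).

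Neuronal genes were also mostly higher. Of 32 tested, 26 had a higher log2 fold change (median 0.19) and 25 with the code as a block (median 0.09). In all 3 within-code differences 19 were higher and 2 lower, against 27.1% higher and 25.1% lower over all tested genes. NRXN2, a presynaptic neurexin, was at 87.7, 95.3 and 97.8 CPM with TRV130 and at 62.3, 84.0 and 66.9 CPM in Control, with no overlap and a log2 fold change of 0.40 (SE 0.17). Every TRV130 library was above every Control library in 3 of the 32 neuronal genes, against 1.71% of all tested genes. L1CAM, an axonal adhesion molecule, was at 263, 278 and 341 CPM against 199, 282 and 147 CPM, and INA, a neuronal intermediate filament, at 109.3, 130.8 and 106.6 CPM against 84.8, 81.4 and 115.5 CPM. Of 32 synaptic vesicle and release genes 25 were higher (median 0.10), and SYT7, a calcium sensor of release, was at 9.99, 10.9 and 12.4 CPM against 5.51, 8.50 and 8.09 CPM. SV2A, a vesicle glycoprotein, was above Control in every library as well, and SYN1, a synapsin, was at 39.0, 41.1 and 30.0 CPM against 37.3, 23.0 and 19.0 CPM. Such separation held for 3 of the 32 synaptic genes, against the same 1.71% of all tested genes. With the code as a block but no Control 1, 20 of the 32 neuronal genes (median 0.041) and 17 of the 32 synaptic genes (median 0.0194) were higher, and without TRV130 3 the main fit gave 21 of 32 (median 0.12) and 16 of 32 (median 0.0259).

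Noradrenergic genes were higher in 25 of 35 in the main fit (median 0.15) and in 27 of 35 with the code as a block (median 0.14). Leaving out Control 2 or TRV130 2 gave 19 higher and 16 lower each time, with medians of 0.0549 and 0.0383. The nicotinic receptor gene CHRNA3 was at 339.7, 350.4 and 326.9 CPM with TRV130 and at 288.1, 287.1 and 242.7 CPM in Control, without overlap. Every TRV130 library was above every Control library in only 1 of the 35 genes, against 1.71% of all tested genes. The transcription factor gene TFAP2B was at 277, 273 and 318 CPM against 208, 292 and 201 CPM, with Control 2 inside the TRV130 range. The retinoic acid targets, which report the differentiation treatment common to all libraries, were split at 6 higher and 10 lower (median -0.09). DHRS3, a retinal reductase, was at 153, 158 and 116 CPM against 190.4, 159.7 and 151.5 CPM, and CYP26A1, which degrades retinoic acid, at 232, 214 and 366 CPM against 219, 427 and 466 CPM. In bulk RNA, fewer cells of a type and less RNA per cell cannot be told apart.

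**Figure D3:**
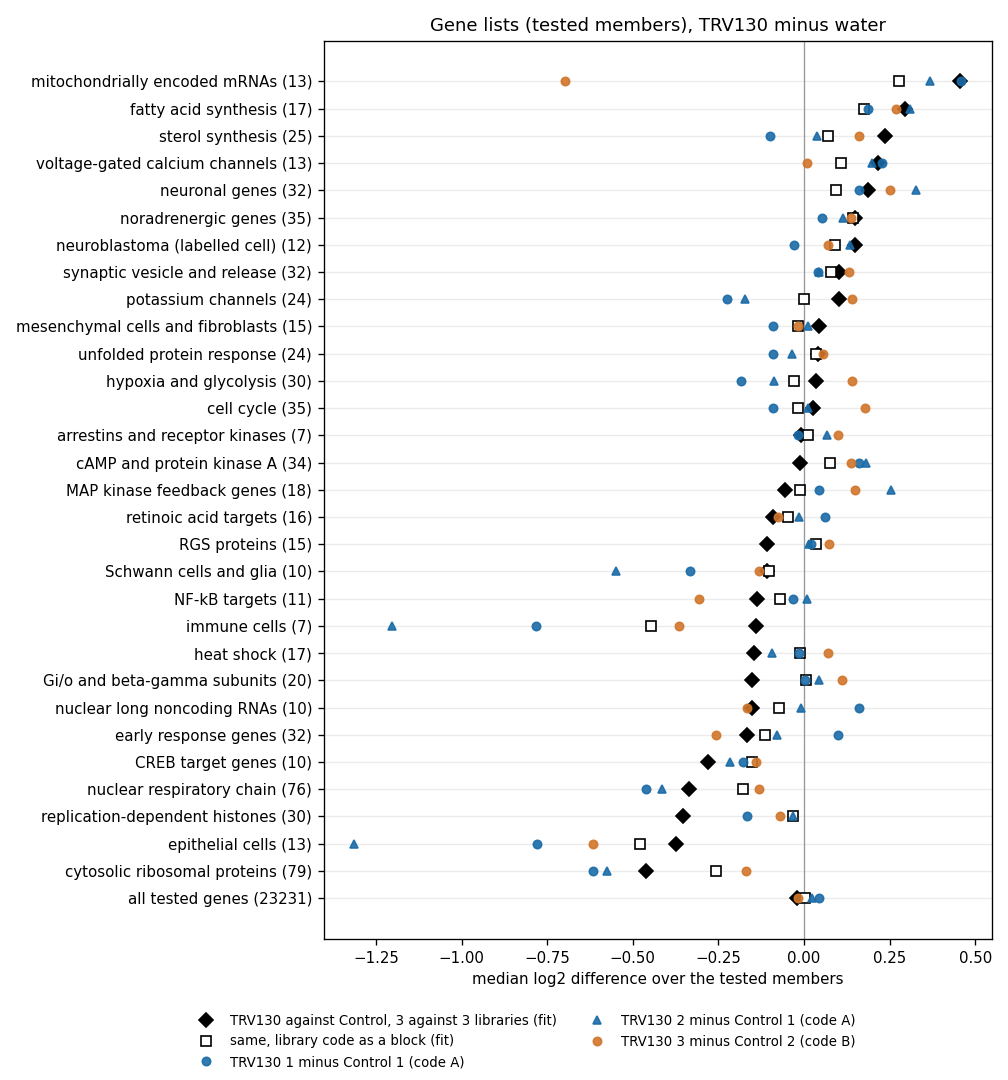
Rows are gene lists with the number of tested members, and the horizontal axis is the median log2 difference of TRV130 minus water. Black diamonds are the 3 against 3 fit, open squares the fit with library code as a block, blue marks the 2 code A differences against Control 1 and orange marks the code B difference against Control 2. Fatty acid synthesis and neuronal genes lie right of 0 and ribosomal protein genes left of 0 in every mark, while mitochondrially encoded mRNAs lie on both sides.

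All 79 cytosolic ribosomal protein genes were lower with TRV130 in the main fit (median -0.46) and with the code as a block (median -0.26), and none was at an unadjusted p under 0.05. Their summed level was 73097, 75330 and 36505 CPM in TRV130 1, 2 and 3 and 110630, 41124 and 99459 CPM in Control 1, 2 and 3. Both code B libraries were lowest, and each TRV130 library was below the Control library of its code. The median within-code differences were -0.62, -0.58 and -0.17, and 77 of the 79 were lower in all 3, against 25.1% of all tested genes. RPS29, a small subunit protein gene, was at 113, 127 and 65.8 CPM against 241, 67.3 and 340 CPM. RPL23A was at 517, 564 and 410 CPM against 900.5, 436.8 and 847.9 CPM, and RPL21 at 322, 343 and 198 CPM against 623, 217 and 559 CPM. Under the code block the direction depended on Control 1: with the code as a block but no Control 1, 77 of 79 were higher (median 0.16), and in the main fit 76 were lower without Control 1 (median -0.21) and 75 without TRV130 3 (median -0.18).

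The nuclear genes of the respiratory chain had the same pattern, with 76 of 76 lower in the main fit (median -0.34) and 71 with the code as a block (median -0.18). ATP5F1E, an ATP synthase subunit, was at 167, 172 and 84.8 CPM with TRV130 and at 305, 99.99 and 397 CPM in Control. NDUFA10, of complex I, was the only member with every TRV130 library below every Control library, at 66.3, 67.3 and 63.1 CPM against 76.0, 69.9 and 73.2 CPM. Over all tested genes 1.75% were lower in this way. With the code as a block but no Control 1, 67 were higher and 9 lower (median 0.16), and without TRV130 3 the main fit had 59 lower (median -0.0934).

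The 13 mRNAs made in mitochondria went the other way, with 12 higher (median 0.45) and 11 with the code as a block (median 0.28), but 9 (median 0.12) without Control 3. Their sum was 159040, 137760 and 74799 CPM with TRV130 and 111050, 118910 and 42123 CPM in Control. TRV130 1 and 2 were the highest of the 6 libraries, Control 3 was the lowest, and TRV130 3 was below Control 2, so the median within-code differences were 0.46, 0.37 and -0.70. MT-ND4L, a complex I subunit, was at 3837, 3100 and 2069 CPM against 881, 3440 and 836 CPM. MT-ND5 was at 6947, 5354 and 3633 CPM against 2790, 5354 and 1423 CPM, and MT-ATP8 at 4549, 4024 and 2408 CPM against 2054, 3716 and 1219 CPM. All mitochondrial RNA together made up 17.7%, 15.6% and 10.0% of reads with TRV130 and 13.3%, 15.7% and 5.81% in Control.

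Nuclear and structured RNAs separated Control 2 from the rest. RN7SL1, the RNA of the signal recognition particle, was at 27.9, 25.1 and 40.5 CPM with TRV130 and at 11.8, 197.5 and 22.4 CPM in Control, and RN7SK, which holds back transcription elongation, at 6.42, 6.44 and 2.70 CPM against 1.04, 21.9 and 5.58 CPM. The nuclear RNA MALAT1 was at 328, 208 and 219 CPM against 141, 1505 and 96.1 CPM. Control 2 was the highest library for all of these genes, and without it the log2 fold changes of RN7SL1, RN7SK and MALAT1 were 0.87, 0.64 and 1.09 in place of -1.31, -0.87 and -1.20. SCARNA2, a guide RNA of Cajal bodies, was lower in each TRV130 library than in any Control library, at 0.431, 0.477 and 0.506 CPM against 1.13, 2.30 and 0.519 CPM. This was so for 1 of the 6 tested structured RNAs and for 1.75% of all tested genes. The levels were low, and TRV130 3 and Control 3 were almost equal.

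**Figure D4:**
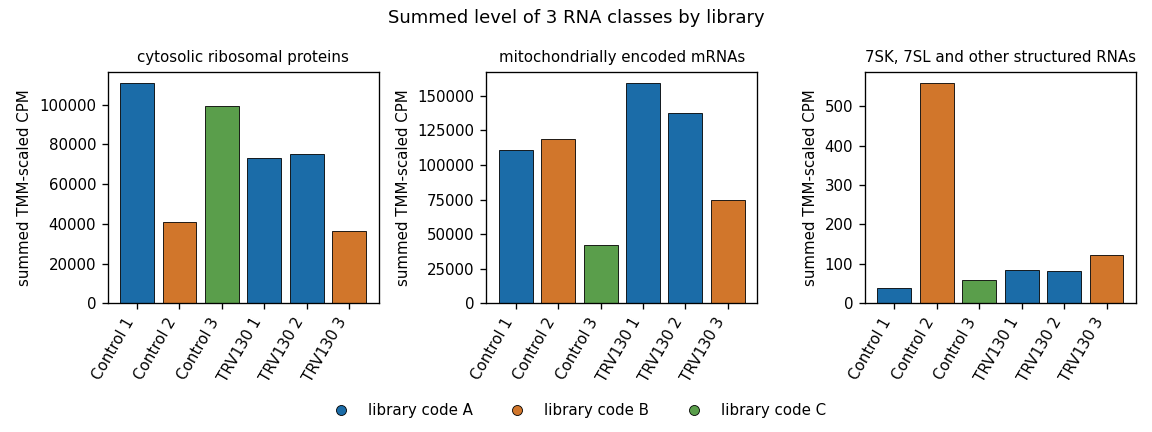
Bars give the summed TMM-scaled CPM of 3 RNA classes in each Control and TRV130 library, coloured by library code. Ribosomal protein mRNAs are lowest in the 2 code B libraries, mitochondrially encoded mRNAs are highest in TRV130 1 and 2, and structured RNAs reach 558 CPM in Control 2 against at most 122 CPM in the other libraries.

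The remaining lists gave no call. Replication-dependent histone genes were lower in 25 of 30 (median -0.35), but the median under the code block was -0.03, and Control 3, at 227 summed CPM, stood above the other 5 libraries at 140.1 to 152.6 CPM. H2AC17 was at 0.431, 0.204 and 0.473 CPM with TRV130 and at 0.496, 0.752 and 1.38 CPM in Control. Cell cycle genes were split at 18 higher and 17 lower. CENPF, a kinetochore protein gene, was at 102, 111 and 89.4 CPM against 57.9, 71.4 and 85.4 CPM, with a log2 fold change of 0.49 (SE 0.20). It was the only 1 of the 35 with every TRV130 library above every Control library, which was so for 1.71% of all tested genes. CREB target genes were lower in 8 of 10 (median -0.28), heat shock genes in 12 of 17 (median -0.15) and NF-kB targets in 7 of 11 (median -0.14). With the code as a block the lower counts were 7 (median -0.15), 10 (median -0.011) and 7 (median -0.0693) in the same order. The CREB targets were 5 higher and 5 lower (median 0.031) with the code as a block but no Control 1. ICAM1, an NF-kB target, had 2.26 CPM in Control 1 and at most 0.304 CPM elsewhere. Unfolded protein response genes were higher in 16 of 24 (median 0.04), and hypoxia and glycolysis genes in 17 of 30 (median 0.04).

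Among the markers of other cell types, Control 1 held the highest sum of them for immune, epithelial, glial and endothelial cells. The summed immune markers were 15.1 to 17.3 CPM with TRV130 and 36.7, 17.5 and 13.4 CPM in Control 1, 2 and 3, and the 7 of 24 that were tested all had a lower log2 fold change (median -0.14). The defining immune genes PTPRC, CD3E and MS4A1 averaged at most 0.03 CPM. Epithelial markers summed to 32.5 to 43.4 CPM against 57.0, 45.6 and 23.6 CPM, with 10 of 13 lower (median -0.37). EPCAM, the epithelial adhesion molecule, was at 4.15, 2.35 and 1.69 CPM against 6.50, 4.96 and 2.85 CPM, and KRT8, a keratin, had 2.75 CPM in Control 1 and at most 0.389 CPM elsewhere. Glial markers were lower in 7 of 10 (median -0.11) and endothelial markers in 5 of 5 (median -0.20). Mesenchymal markers summed to 777 to 894 CPM in the 6 libraries and were higher in 8 of 15 (median 0.05), and none of the 7 red blood cell genes was high enough to test. The part of these cells or of Control 1's extra reads in the lower values with TRV130 was not tested.

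Finally, TRV130 was set against the other 4 compounds together (12 libraries of morphine at 193 nM, metamorphine at 169 nM, and beta-endorphin and naloxone at 200 nM each), a comparison that leaves the Control libraries out of both sides. The doses differ, so this describes the groups as given. The edgeR quasi-likelihood test with Benjamini-Hochberg adjustment called 0 of 23231 genes (0.0%), with 2232 at an unadjusted p under 0.05, of which 1444 were higher (6.22%) and 788 lower (3.39%). With the code as a block it called 0 genes (0.0%), with 3334 at an unadjusted p under 0.05 (8.32% of the tested genes higher and 6.04% lower). RGPD5 was 1.84 higher on the log2 scale (unadjusted p = 3.14e-05) and the only gene called by DESeq2 (adjusted p = 0.00995). DESeq2 with the code called RGPD5, SLX1A and SMIM11 as higher and KCNQ3, a potassium channel gene, as lower (-1.06, adjusted p = 0.0383). The first 3 of these have near-identical copies, so their counts are uncertain. CNTN1, UTRN and RYR1 differed from the other compounds by -0.09, 0.06 and -0.38, LINC02983 by -0.49 and KIZ by -0.32. The mitochondrially encoded mRNAs had a median of 0.97 against the other compounds and 0.72 with the code as a block, and the sterol genes 0.33 and 0.14. The ribosomal protein genes, lower against water, had 0.09 and 0.27, and the nuclear respiratory chain genes 0.13 and 0.30. Mean log2 CPM of the ribosomal genes was 9.63 and 9.68 in TRV130 1 and 2, against 8.92 to 9.20 in the other compounds of code A. In TRV130 3 it was 8.63, within the 8.43 to 9.18 of the other compounds of code B. The neuronal genes, higher against water, had -0.0216 and -0.0669, and the fatty acid genes 0.0936 and -0.0378.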

How the data were processed

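The deposited table, made by the authors, holds whole-number read counts for Ensembl genes. RNA came from TRIzol extraction with DNase I treatment, and 150 bp pairs were sequenced without strand information, per the labels' protocols. The tools used were FastQC, HISAT2, featureCounts and DESeq2 with GRCh38 (hg38), per the submitters' processing notes. The sources used here give neither versions nor settings of these tools. All 58735 gene IDs were in GENCODE 29, which supplied symbols and positions. Of the library names, M3_TRV130_10409 and M3_TRV130_20409 were read as code A.

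The main test was the robust quasi-likelihood fit of edgeR 4.0.16 (R 4.3.3) to all 18 libraries, with a mean for each of the groups and a shared spread, after filterByExpr at a minimum count of 10 and TMM scaling. Two-sided p-values were adjusted by Benjamini-Hochberg over 23231 genes, with a threshold of 0.05. The biological coefficient of variation was 0.309, or 0.182 with the code. Alternatives were DESeq2 1.42.0, RLE size factors, no filter, the code or the replicate number as a block, limma 3.58.1 voom, codes A and B only, and TRV130 and Control alone. Each library of the groups in a comparison was also left out in turn. Voom without quality weights was added after seeing the data.

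The comparison, the 36 gene lists (857 of 859 entries matched) and the rules were chosen with earlier results of these data known. Named were the opioid receptor and title genes, FOS, EGR1 and NR4A1, the 10 protein-coding genes per direction with the smallest p (at least 1 CPM), the 10 per direction with the largest smallest within-code difference (at least 5 CPM), any that passed with the code as a block, and at most 4 genes per list by p. Tests were checked on simulated counts. Lists were not tested as sets and are described by counts and medians beside those of all genes.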

Additional observations from a re-analysis of the deposited data

Results flagged for a closer look

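In 6 gene lists the median TRV130 minus water difference had 1 sign in both libraries of code A and the other sign in code B, and the difference between the codes was not tested. The median over mitochondrially encoded mRNAs was 0.46 for TRV130 1 and 0.37 for TRV130 2, both against Control 1, and -0.70 for TRV130 3 against Control 2. The median over 7SK, 7SL and other structured RNAs was 1.17, 1.10 and -2.19 in the same order. The median over potassium channel genes was -0.22, -0.17 and 0.14. These 3 lists differed from 0 by more than 0.1 in each value. The other 3 were smaller in at least 1 value: hypoxia and glycolysis genes (-0.19, -0.0878 and 0.14), unfolded protein response genes (-0.0896, -0.0339 and 0.0544) and heat shock genes (-0.0158, -0.0929 and 0.0714). Both code A values share Control 1, so they are not independent of each other.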

How the results depend on the processing

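For TRV130 against Control, RLE size factors, no filter, codes A and B only (code blocked), TRV130 and Control alone, and the code block without Control 1 each gave 0 called genes. Leaving out any 1 TRV130 or Control library gave 0 to 0, and libraries of the other compounds were not left out for this comparison. The replicate number as a block called 0 genes too. The numbers do not pair the libraries: deviations from the group mean correlated at 0.746, -0.801 and -0.109 between libraries of the same number, and at 0.746, 0.557 and 0.759 between libraries of the same code (11945 genes). DESeq2 called 1 gene, or 4 with the code, and coded limma voom called 1 with quality weights and 1 without. Against the other 4 compounds DESeq2 called 1, or 4 with the code, and voom with quality weights and the code 10078, where the weights were 3.40 for TRV130 2, 0.27 for TRV130 3 and 0.13 for Control 1, against 0 without quality weights. Leaving out 1 library gave 0 to 1 there, the 1 being RGPD5 without Metamorphine 3. Where these counts differ, the cause was not tested.

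Of 94 named and tested genes, 65 kept their sign in every alternative run (17 for 86 genes and 16 for 8 too low to test with TRV130 and Control alone), and 40 of 577 list medians moved by more than the spread between libraries. With the code block but no Control 1, log2 fold changes turned for OPRM1 (-0.10), ZNF286B (-0.0135), AC240274.1 (-0.22), SOGA3 (-0.15), IGFBPL1 (-0.22), CACNA1A (1.00), LAT (0.24), ZMYND10 (0.14), S100A11 (0.11), RCN3 (0.0526), GNG8 (0.14), ATP5F1E (0.045), RPS29 (0.0482), RPL21 (0.051) and OPRL1 (0.078). With voom, quality weights and the code they turned for OPRM1 (-0.36), TBC1D3G (-1.34), ENSG00000274276 (-0.20), ZNF286B (-0.0382), AC240274.1 (-0.64), SOGA3 (-0.30), IGFBPL1 (-0.35), ZNF286A-TBC1D26 (-0.0172), CACNA1A (0.0577), LAT (0.18), ZMYND10 (0.24), FUOM (0.05), S100A11 (0.26), GNAO1 (-0.0402), GNG8 (0.27), PDE4B (-0.0198), ATP5F1E (0.18), RPS29 (0.11), RPL21 (0.10) and SYT7 (-0.067). OPRL1 was 0.079 with the code as a block, 0.0585 with DESeq2 and the code, 0.0798 with unweighted voom, 0.12 in codes A and B alone and 0.0164 without the filter, and OPRD1 was 0.14 with the replicate block. With 1 library left out the lowest and highest values were -0.13 and 1.27 for OPRM1, -0.70 and 0.67 for OPRD1, -0.20 and 0.12 for OPRL1, -0.61 and 0.26 for NR4A1, -1.45 and 4.67 for TBC1D3G, -0.42 and 0.92 for AC240274.1, -0.004 and 1.01 for SOGA3, -0.13 and 0.81 for IGFBPL1, -7.48 and 1.88 for CACNA1A, -0.67 and 0.29 for LAT, -0.69 and 0.0254 for SEMA4A, -0.62 and 0.23 for RCN3, -0.0688 and 0.21 for ARRB2, -1.82 and 0.87 for RN7SL1, -1.42 and 0.64 for RN7SK, and -1.70 and 1.09 for MALAT1.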
